A study of Mus musculus with 6 samples.

Results

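The ERK feedback regulators and outputs are 10 mouse genes whose products restrain, or are induced by, signalling through the kinases ERK1 and ERK2. They are the phosphatase genes Dusp1, Dusp4 and Dusp6, the Sprouty genes Spry1, Spry2 and Spry4, the Spred genes Spred1 and Spred2, and the ETS transcription factor genes Etv4 and Etv5. The genes were chosen by name, and every probe set whose annotated symbol, old or current, was one of them was taken. A probe set is a group of short oligonucleotides that together measure a transcript. This gave 28 of 45137 non-control probe sets, 15 of 22626 on the MOE430A array and 13 of 22511 on MOE430B. In that total 100 probe sets, none of them of these genes, are on both array types and count for each, so 45037 are distinct. Of the 10 genes, 5 had probe sets on both array types, 4 on MOE430A alone (Dusp1, Dusp6, Spry1 and Spry2) and 1 on MOE430B alone (Dusp4).

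DR4 embryonic fibroblasts are mouse cells that serve as a feeder layer for embryonic stem cells, and were profiled as the control for 3 stem cell lines that are not analysed here. RNA of 3 replicates was hybridized to 1 array of each type, which made 6 samples. Replicate 1 was prepared from 12x10e6 cells (RNA at 2.4 ug/ul), and replicates 2 and 3 from 3x10e6 cells each (RNA at 3.0 ug/ul), as the labels write it. All replicates came from day 15 embryos, and their D-MEM medium held LIF and 15% heat-inactivated serum. They were kept on gelatin (0.1%) under 5% CO2 at 37 C, and the labels name no genotype and no treatment. Whether the replicates were separate cultures is not stated. Each p-value thus reflects only how replicates 2 and 3 differ, pooled over probe sets, possibly for technical reasons.

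ERK is the last kinase of a cascade that runs from growth factor receptors through Ras, Raf and MEK, and it is switched on in fibroblasts by serum. Active ERK raises the transcription of its own inhibitors, and these act at different levels of the cascade: Sprouty and Spred proteins upstream, and dual-specificity phosphatases on the kinase itself. Because they are induced by the pathway, Dusp6, Spry4, Etv4 and Etv5 are widely used as transcript readouts of ERK activity, for example downstream of FGF receptors.

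Signals below are MAS5 intensities on a linear scale. The floor was the median signal of each array: for replicates 1, 2 and 3 it was 689, 685 and 734 on MOE430A, while the MOE430B arrays had 849, 917 and 907. The highest tryptophan control, which probes a bacterial gene, read 614, 757 and 786 on the MOE430A arrays, whereas those of MOE430B gave 1989, 2348 and 2229. All 10 fibroblast markers were above the floor, against 1 of 5 pluripotency, 2 of 5 macrophage, 1 of 4 endothelial and 2 of 4 epithelial markers. The MOE430A arrays of replicates 1 and 2 were scanned on the same day after the same fluidics station, and replicate 3 had another of each. All 3 MOE430B arrays were scanned on 1 day, but replicate 1 alone ran on another station, and there the effects of station and of replicate 1 cannot be told apart.

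Of the 10 genes, 9 had at least 1 probe set above the floor on all 3 arrays of a type, and Etv4 had none. The same held for 54.7% of 18193 genes with 1 symbol. By probe set, 8 of 15 were above the floor on MOE430A (53.3%), where the background was 42.4%. On MOE430B it was 9 of 13 (69.2%), where the background was 37.2%. A gene with many probe sets has more chances to pass, and Spred1 and Spred2 hold 8 and 5 of the 28. With the 75th percentile of the array as the floor, 2 remained on MOE430A, 1 each of Spry1 and Spry2 (20.7% of all probe sets passed). On MOE430B 2 remained, 1 each of Spred1 (1443652_x_at) and Etv5 (1428142_at), with 17.7% of all. No other Spred1 probe set passed this floor. The same count of 2, for the same pair of genes, was left on MOE430B by the highest tryptophan control (16.2% of all).

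**Figure D1:**
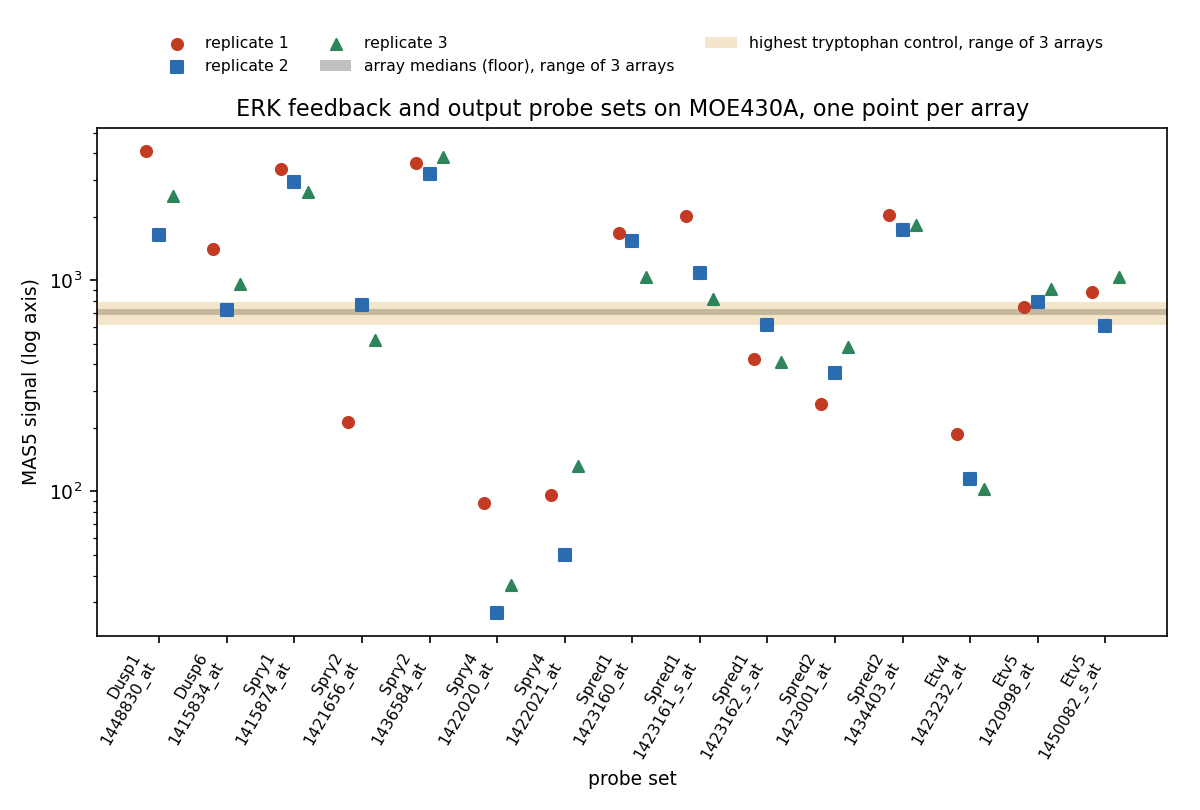
MAS5 signal (log axis) of the 15 MOE430A probe sets of the ERK feedback regulators and outputs, 1 point per array, in replicates 1, 2 and 3 from left to right within each probe set. The grey band spans the 3 array medians (685 to 734) and the yellow band the 3 values of the highest tryptophan control (614 to 786). Dusp1, Spry1 and 1 probe set of Spry2 lie well above both bands, and Etv4 and Spry4 below.

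The dual-specificity phosphatases were all above the floor, and each was brightest in replicate 1. So were 33.2% of all tested probe sets on MOE430A and 35.7% on MOE430B. Dusp1, which encodes a nuclear phosphatase of ERK, p38 and JNK and is itself an immediate early gene, read 4079 in replicate 1, against 1642 and 2493 in replicates 2 and 3 (probe set 1448830_at on MOE430A). Replicate 1 lay above both others, with a log2 difference of 1.01 (SE 0.38) from their mean, 2.01-fold. This difference did not pass the threshold of 0.05 in limma (adjusted p = 0.357, unadjusted p = 0.0133). Between the arrays that shared a scan day, replicates 1 and 2, it was 1.30.

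Dusp6, which encodes the cytoplasmic phosphatase that is selective for ERK, read 1407 in replicate 1, against 722 and 963 in replicates 2 and 3 (1415834_at on MOE430A). The order of the arrays was that of Dusp1, with replicate 2 the lowest. Its replicate 2 value was above the floor of 685 but below that array's tryptophan control of 757. The log2 difference was 0.74 (SE 0.37, adjusted p = 0.639 in limma), and 0.95 between replicates 1 and 2.

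Dusp4, which encodes a nuclear phosphatase related to Dusp1, was measured on MOE430B alone and read 5273 in replicate 1, against 2072 and 1614 in replicates 2 and 3 (1428834_at). The values of replicates 2 and 3 were above the floor but below the tryptophan controls of their arrays. Its log2 difference of 1.52 (SE 0.39), 2.87-fold, was the largest among the 18 tested probe sets and did not pass in limma (adjusted p = 0.513, unadjusted p = 0.0141). On the same array type the smallest adjusted p of any probe set was 0.405, and on simulated MOE430B arrays the same fit called none of the known differences, including ones larger than that of Dusp4. The lack of a call on MOE430B therefore says nothing about whether these genes differed. Among tested probe sets 3.75% on MOE430A differed by more than Dusp1, 9.05% by more than Dusp6, and 3.65% on MOE430B by more than Dusp4, in either direction.

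The 250 bases before the annotated start of Dusp1 and Dusp6 are shown because both varied in the same order over the MOE430A arrays. An order of 3 arrays is easily shared, and the Spred2 probe set 1434403_at, whose window is not shown, had it too. The bases are RefSeq sequence of GRCm38.p6, written 5′ to 3′ on the strand of the gene. Dusp1 lies at chr17:26508473-26508722 on the minus strand and Dusp6 at chr10:99262981-99263230 on the plus strand. Capitals mark matches to any of 4 motifs searched on both strands, which were the cyclic AMP response element TGACGTCA, its shorter core TGACG, the AP-1 site TGANTCA and the ETS site CCGGAA.
Dusp1: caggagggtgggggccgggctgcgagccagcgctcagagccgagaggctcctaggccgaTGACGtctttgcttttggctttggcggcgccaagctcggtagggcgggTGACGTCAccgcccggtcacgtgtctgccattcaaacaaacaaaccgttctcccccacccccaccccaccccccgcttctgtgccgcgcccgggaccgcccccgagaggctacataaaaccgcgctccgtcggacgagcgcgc
Dusp6: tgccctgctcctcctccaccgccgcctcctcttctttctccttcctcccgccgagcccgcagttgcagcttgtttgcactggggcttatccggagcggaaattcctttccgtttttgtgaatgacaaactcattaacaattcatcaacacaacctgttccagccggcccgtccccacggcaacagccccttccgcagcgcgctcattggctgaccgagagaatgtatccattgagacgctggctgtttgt
Dusp1 held the full element once, with its first base 143 bases before the start, and a separate core at 191, while the full element contains the core on both strands. The full element occurs in 1.55% and the core in 17.8% of all 32851 promoter windows of this length. None of the 4 motifs is in the Dusp6 window. The AP-1 letters TGANTCA, in 6.75% of windows, and the ETS letters CCGGAA, in 12%, were in neither. Only these exact letters were searched, so other sequences that such factors may bind were not counted. Promoter sequences were matched for 7 of the 10 genes, in 8 windows, and Dusp1 and Spred2 were the only ones of them with a match to any motif. A match describes letters and not binding.

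The Sprouty genes encode membrane-associated inhibitors that act between the receptor and Raf. Spry1 read 3379 in replicate 1, against 2927 and 2626 in replicates 2 and 3 (1415874_at on MOE430A). Spry2 had 3586 in replicate 1, against 3191 and 3819 in replicates 2 and 3 (1436584_at on MOE430A). Both were far above the floor, and their coefficients of variation of 12.7% and 8.99% were below the median of 16.5% over all MOE430A probe sets above the floor. The log2 differences of replicate 1 were 0.28 for Spry1 (SE 0.37, adjusted p = 0.950 in limma) and 0.04 for Spry2 (SE 0.37, adjusted p = 0.991).

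A second probe set of Spry2 did not behave like the first. It read 214 in replicate 1, against 765 and 522 in replicates 2 and 3 (1421656_at), and was above the floor in replicate 2 alone. Spry4 likewise depended on the probe set. On MOE430B it read 2996 in replicate 1, against 2034 and 3247 in replicates 2 and 3 (1440867_at), which gave a log2 difference of 0.22 (SE 0.45, adjusted p = 0.944 in limma). The replicate 2 value there was below that array's tryptophan control. Its other 3 probe sets were under the floor on every array, at 352 to 509 on MOE430B (1445669_at) and at 26.7 to 132 for the pair on MOE430A (1422020_at and 1422021_at), which were designed from the same sequence record.

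**Figure D2:**
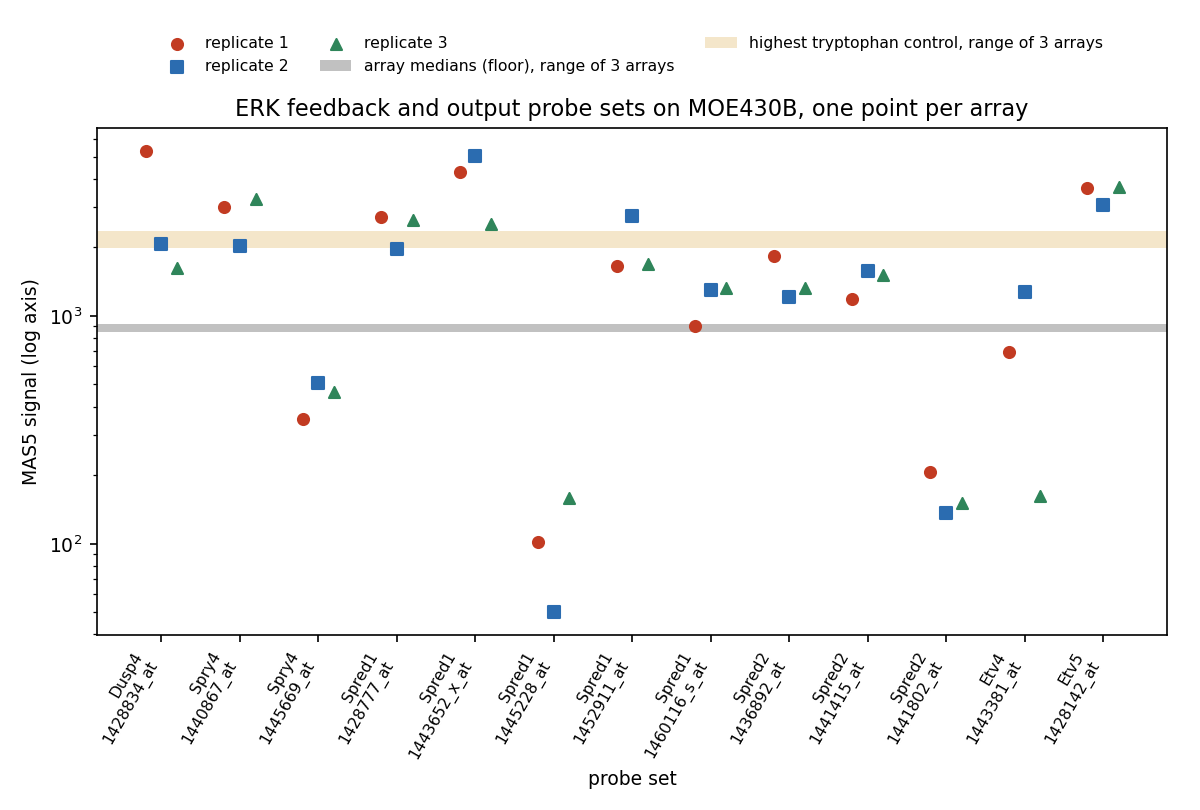
MAS5 signal (log axis) of the 13 MOE430B probe sets, 1 point per array, in replicates 1, 2 and 3 from left to right within each probe set. The grey band spans the array medians (849 to 917) and the yellow band the highest tryptophan control (1989 to 2348). Dusp4 stands above the yellow band in replicate 1 (5273) and in or below it in the other replicates, while Etv5 (3052 to 3691) lies above it on every array.

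The Spred genes encode Sprouty-related proteins that hold back the activation of Raf and, for Spred1, bring the Ras inhibitor neurofibromin to the membrane. Of 8 Spred1 probe sets 6 were above the floor on all arrays of their type, and they did not order the replicates alike. On MOE430A, 3 probe sets came from the same sequence record. The first had 1665 in replicate 1, against 1541 and 1041 in replicates 2 and 3 (1423160_at). The second had 2008, against 1081 and 811 (1423161_s_at), and the third, under the floor throughout, had 425, against 617 and 412 (1423162_s_at). The suffix _s_at marks a probe set whose oligonucleotides match more than 1 transcript.

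The second of these had the largest log2 difference among the 9 tested MOE430A probe sets of the 10 genes, 1.09 (SE 0.37), 2.12-fold, with 2.95% of tested probe sets differing by more. It did not pass in limma (adjusted p = 0.253, unadjusted p = 0.00699), and was 0.88 between replicates 1 and 2, which shared a scan day. The first had a log2 difference of 0.39 (SE 0.38, adjusted p = 0.912 in limma).

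On MOE430B, a pair of Spred1 probe sets from another shared record had differences of opposite sign that came mostly from replicate 2. Against replicate 3 alone, the log2 differences of replicate 1 were 0.05 and -0.03. One had 2712 in replicate 1, against 1963 and 2627 in replicates 2 and 3 (1428777_at), and the other had 1647, against 2747 and 1682 (1452911_at). The former was under the tryptophan control in replicate 2, and the latter in replicates 1 and 3. Their log2 differences were 0.25 (SE 0.40) and -0.38 (SE 0.46), with adjusted p = 0.922 and 0.902 in limma. A further pair from another record had 4259, against 5024 and 2533 (1443652_x_at), and 900, against 1301 and 1329 (1460116_s_at). The last of these was under the tryptophan control on every array. It was lowest in replicate 1, as were 33.9% of all tested MOE430B probe sets. Its log2 difference was -0.54 (SE 0.36, adjusted p = 0.839 in limma), opposite in sign to 1423161_s_at on the other array type. The remaining Spred1 probe set, 1445228_at, was at 50.2 to 159.

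Spred2 varied little on its brighter MOE430A probe set. It read 2036 in replicate 1, against 1733 and 1818 in replicates 2 and 3 (1434403_at on MOE430A), with a coefficient of variation of 8.39%, the lowest among the probe sets above the floor here. Its log2 difference was 0.20 (SE 0.37, adjusted p = 0.976 in limma). On MOE430B it had 1828, against 1207 and 1332 (1436892_at), and 1189, against 1575 and 1518 (1441415_at). Both lay above the floor but under the tryptophan control on every array. The first was highest and the second lowest in replicate 1, and neither passed in limma (adjusted p = 0.843 and 0.873). Of all tested MOE430B probe sets, 35.7% were highest and 33.9% lowest in replicate 1. The other Spred2 probe sets were under the floor on every array, at 261 to 483 on MOE430A (1423001_at) and at 136 to 207 on MOE430B (1441802_at).

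Etv4 and Etv5 encode ETS transcription factors of the PEA3 family, which act as nuclear outputs of ERK. Etv5 read 3655 in replicate 1, against 3052 and 3691 in replicates 2 and 3, on MOE430B (1428142_at), above the tryptophan control on every array. On MOE430A it had 744, against 787 and 909 (1420998_at), and 880, against 606 and 1036 (1450082_s_at), both designed from the same record and both near the floor. Their log2 differences were -0.18 (SE 0.37) and 0.15 (SE 0.39), and that on MOE430B was 0.12 (SE 0.38), with adjusted p = 0.978, 0.978 and 0.959 in limma. The Etv5 values of replicate 1 thus lay within those of the other replicates on 2 of 3 probe sets.

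Etv4 was the exception among the 10 genes. It read 187 in replicate 1, against 115 and 103 in replicates 2 and 3, on MOE430A (1423232_at), under the floor on every array. On MOE430B it had 697, against 1272 and 162 (1443381_at), above the floor in replicate 2 alone and under that array's tryptophan control. Both probe sets were too dim to be tested.

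Across the 28 probe sets, 18 were bright enough on average to be tested for replicate 1 against replicates 2 and 3, and limma called 0 of them. The background was 0.705% on MOE430A (78 of 11066) and 0% on MOE430B (0 of 10594). At an unadjusted p below 0.05 there were 2 of 9 on MOE430A (Dusp1 and Spred1), among 900 of all tested, and 1 of 9 on MOE430B (Dusp4), among 767. With an eBayes trend, limma also called 0 of the 18. Of all tested MOE430A probe sets, 0.217% were called higher and 0.488% lower in replicate 1. Since replicate 1 is a lone array, its own spread is unknown and was taken to be that of the others. That spread is the gap between replicates 2 and 3, which on MOE430A also differed in scan day and station. For each probe set limma draws it toward a value shared by all, with a weight (prior degrees of freedom) of 25.6 on MOE430A. On MOE430B this weight was 3.49. On MOE430A replicate 1 was above both others for 6 of 9 probe sets, where the background was 33.2%, and below both for 1 of 9, where it was 35.6%. On MOE430B these counts were 3 of 9 and 3 of 9, beside backgrounds of 35.7% and 33.9%. The median log2 difference of the 9 was 0.28 on MOE430A, beside -0.01 over all tested, and 0.22 on MOE430B, beside 0.03.

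**Figure D3:**
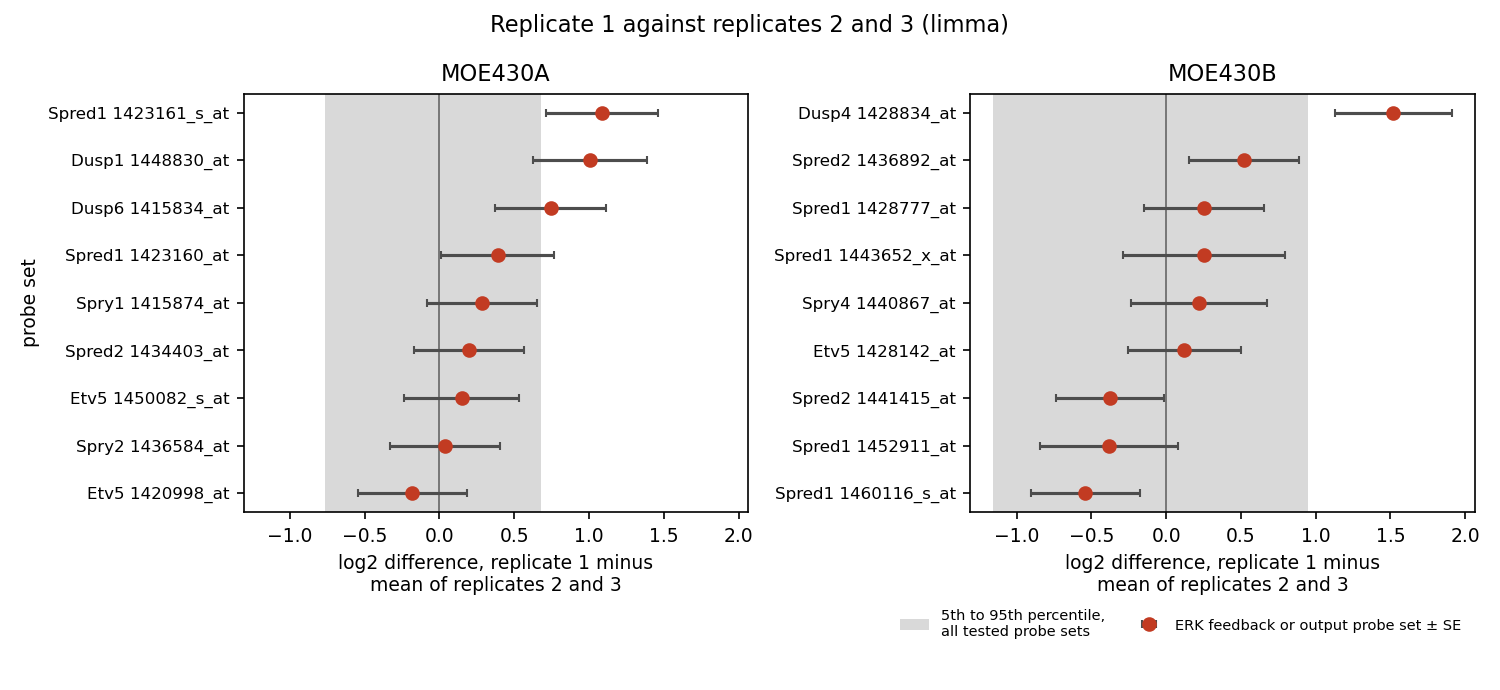
Log2 difference of replicate 1 from the mean of replicates 2 and 3, on log2(signal + 16), for the 9 tested probe sets of each array type, with the moderated SE from limma as bars. Grey spans the 5th to 95th percentile of all tested probe sets (-0.76 to 0.68 on MOE430A and -1.16 to 0.95 on MOE430B). Dusp1 (1.01), Dusp6 (0.74) and 1 of the Spred1 probe sets (1.09) on MOE430A, and Dusp4 (1.52) on MOE430B, lie outside it, and none passed the threshold.

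Measures of RNA and culture also differed between the replicates. The ratio of the 3′ to the 5′ signal of beta-actin was 1.05 in replicate 1, against 1.17 and 1.09 in replicates 2 and 3, on MOE430A, and 1.02, against 1.33 and 1.10, on MOE430B. That of Gapdh was 1.27, against 1.16 and 0.85, and 1.32, against 1.24 and 0.80. The summed signal of the 10 fibroblast markers on MOE430A was 636417 in replicate 1, against 720902 and 802555 in replicates 2 and 3. The same sum was 5650, against 5584 and 4878, over 5 macrophage markers. It was 1020, against 1343 and 881, over 5 pluripotency markers, 1954, against 2194 and 2395, over 4 endothelial markers and 2645, against 2624 and 1793, over 4 epithelial markers. The defining stem cell markers Pou5f1 (15.6, against 265 and 46.0) and Nanog (36.8, against 119 and 119) were under the floor throughout. The part of these measures in the differences of the phosphatases was not tested.

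The replicate spread of the feedback regulators was near that of other genes. The median SD of log2(signal + 16) over the probe sets above the floor was 0.27 on MOE430A, beside 0.24 for all such probe sets, and 0.31 on MOE430B, beside 0.28. It ran from 0.12 (Spred2) to 0.66 (Spred1, 1423161_s_at) on MOE430A and from 0.15 (Etv5) to 0.90 (Dusp4) on MOE430B. The median on MOE430A was 0.15 without replicate 3.

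Other genes of the pathway were taken from lists chosen by function, and limma called 0 genes in each of the 4. The share above the floor to set beside each list is 54.7%, that of all genes with 1 symbol. Of 12 measured feedback regulators and family relatives outside the 10, 7 were above the floor. Those named by the rule were Errfi1, an inhibitor of the EGF receptor, at 5937 in replicate 1 against 2313 and 3063 in replicates 2 and 3, and Spred3 on MOE430B at 4943, against 2187 and 3897. Dusp7 had 1717, against 2081 and 2411, on its brightest probe set (log2 difference -0.38), and another went the other way (0.43). Dusp14 had 1261, against 1057 and 1026. Errfi1 was highest in replicate 1, as Dusp1, Dusp4 and Dusp6 were, with a log2 difference of 1.15 (SE 0.37, adjusted p = 0.200 in limma), and 0.48 on its second probe set (SE 0.40, adjusted p = 0.879). Dusp5, another nuclear phosphatase of ERK, was chosen after its values were seen and had 4571 in replicate 1, against 1155 and 429 in replicates 2 and 3, on MOE430B. Its replicate 3 value was under the floor, and its log2 difference of 2.67 (SE 0.68) did not pass in limma (adjusted p = 0.512). Dusp2 of the same list went the other way, with 104 in replicate 1 against 759 and 977 in replicates 2 and 3 on MOE430A. It was under the floor in replicate 1 and too dim on average to be tested. The relatives had a median log2 difference of 0.27 over 7 tested probe sets on MOE430A and of 0.36 over 4 on MOE430B.

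Of the 15 genes in the list of ERK-responsive transcription genes, 12 were above the floor. The list also holds factors that ERK acts on as proteins, such as Cic, so it is not one of induced genes alone. Ccnd1, the cyclin of the G1 phase, had 37095 in replicate 1, against 23142 and 30645 in replicates 2 and 3, on its brightest probe set, and Ier3 had 5656, against 2581 and 3061. Egr1, an immediate early factor, had 5185, against 4068 and 3513, and Cic, a repressor that ERK inactivates, had 3830, against 4154 and 5723. The Cic probe set is also on MOE430B, where it read 19253, against 17561 and 19972, and replicate 1 was not the lowest. Of 22 tested MOE430A probe sets of this list, 13 were highest in replicate 1 (background 33.2%) and 5 lowest (35.6%), with a median log2 difference of 0.51. None of them passed in limma, and 4 had an unadjusted p below 0.05. On MOE430B the list had 3 tested probe sets, with a median of 0.04, 1 highest and 1 lowest in replicate 1.

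The cascade itself and its receptors gave other values. In the cascade core, 12 of 15 measured genes were above the floor, and its 20 tested MOE430A probe sets had a median log2 difference of 0.13, with 7 highest and 5 lowest in replicate 1. Its 7 on MOE430B had a median of -0.13, with 2 highest and 3 lowest. Among them the phosphatase gene Ptpn11 had 7240 in replicate 1, against 7108 and 8167 in replicates 2 and 3, and the MEK1 gene Map2k1 had 8127, against 5346 and 5596. The adaptor gene Shc1 had 4441, against 4731 and 7408, and the MEK2 gene Map2k2 had 2779, against 2040 and 3746. Of 8 receptor genes 6 were above the floor. Their 14 tested MOE430A probe sets had a median of -0.35, with 4 highest and 8 lowest in replicate 1. On MOE430B the 6 receptor probe sets had a median of -0.13, with 2 highest and 3 lowest. The largest receptor difference was that of Fgfr2, chosen after its values were seen, with 2162 in replicate 1 against 3553 and 5950 in replicates 2 and 3, a log2 difference of -1.08 (SE 0.39, adjusted p = 0.299 in limma). Egfr had 4903, against 7384 and 5917, Pdgfrb 3688, against 7347 and 5285, Fgfr1 4508, against 4464 and 5622, and Pdgfra 3092, against 3760 and 5427. The fibroblast markers had a median of -0.40 over 18 MOE430A probe sets, with 4 highest in replicate 1 (those of Vim and Thy1) and 12 lowest. Pdgfra and Pdgfrb are in both the receptor list and the marker list. Over all tested probe sets, 33.2% were highest and 35.6% lowest in replicate 1 on MOE430A, and 35.7% and 33.9% on MOE430B.

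The genes nearest in pattern were sought for the 3 probe sets with the largest SD among those above the floor on all MOE430A arrays, by the Euclidean distance of centred log2 profiles over 3 arrays. The nearest to Dusp1 were Bcl2l1, Alg1 and Mybbp1a, at distances of 0.03, 0.04 and 0.05. To Dusp6 they were Pdlim5, Atp1b1 and Khdrbs1 (0.01, 0.02 and 0.02), and to the Spred1 probe set 1423161_s_at they were Hdhd2, Pa2g4 and Eno3 (0.01, 0.04 and 0.05). Profiles of 3 points are easily matched, and of 8813 compared probe sets 19, 123 and 38 lay within 0.2 of Dusp1, Dusp6 and Spred1.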

How the data were processed

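Each deposited column holds the signal intensity of 1 array, linear and made by MAS5 per the submitters' processing notes. Which MAS5 version, background correction and scaling target applied is not given in the sources used here. On every array the mean signal without the top and bottom 2% of probe sets was 1499.9 (MOE430A) or 1499.8 (MOE430B), which shows a common scaling within a type, and no result compares levels between the array types. Control probe sets (64 per table) were left out of all tests. Gene names came from the platform annotation, with symbols updated through the gene identifier, and no probe set with several symbols held a member. An array has no genome build, so only promoter coordinates are given.

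limma (3.58.1, R 4.3.3) compared replicate 1 with replicates 2 and 3 within an array type on log2(signal + 16), which understates the change of dim genes. Probe sets entered if their mean log2 signal exceeded the mean log2 floor, and Benjamini-Hochberg adjustment ran over all of them. The fit was tested on simulated data with known differences. On MOE430A it called most of the larger ones but missed most of those about as large as that of Dusp1, and it called none on MOE430B, where it estimated their size but could not call them. From each pathway list 4 genes are named, those brightest on average over 1 probe set per gene, its brightest on MOE430A (on MOE430B where it has none there, as Spred3), if above the floor. MOE430B probe sets of genes that are also on MOE430A, such as those of Igf1r, Araf and Braf, thus did not count, and the rule orders no transcripts. Some listed genes had no probe set named here. The members, lists and tests were chosen with earlier results of these data known. Scan day and station came from instrument records. The number of arrays limits precision.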

Additional observations from a re-analysis of the deposited data

How the results depend on the processing

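Limma called 0 of the 18 tested probe sets with pseudocounts of 1 and 64, no filter on low values, quantile normalization or an eBayes trend. All 18 log2 differences kept their sign with both pseudocounts and quantile normalization, while the filter and the trend cannot change a log2 difference. On MOE430B the count of 0 called carries no weight, since the fit called none of the differences simulated there. Adjusted p-values ran from 0.151 to 0.978 for Dusp1, from 0.634 to 0.978 for Dusp6, from 0.409 to 0.632 for Dusp4 and from 0.230 to 0.939 for the Spred1 probe set 1423161_s_at. Over all genes on MOE430A, limma called 78 probe sets, 0 without a filter, 0 after quantile normalization and 164 with a trend, so what counts as background there rests on these choices, and the cause was not tested.

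Under a floor at the 75th percentile, 2 probe sets were left on MOE430A and 2 on MOE430B, and with the highest tryptophan control 2 on MOE430B, since these floors are higher. Leaving out each replicate gave 8 to 9 on MOE430A and 9 on MOE430B. The median SD on MOE430A was 0.41 with no filter, which adds dim probe sets. It was 0.15 to 0.32 when each replicate was left out, lowest without replicate 3, and 0.25 to 0.37 on MOE430B. Without replicate 2 or 3 the contrast has no residual degrees of freedom and gives values only, 0.71 and 1.30 for Dusp1, 0.54 and 0.95 for Dusp6 and 1.70 and 1.34 for Dusp4. In these, 5 small differences changed sign: without replicate 2 those of Spry2 (1436584_at, -0.09), Spry4 (1440867_at, -0.12) and Etv5 (1450082_s_at, -0.23, and 1428142_at, -0.01), and without replicate 3 that of Spred1 (1443652_x_at, -0.24). No paired analysis was possible because the comparison sets replicate 1 against replicates 2 and 3, which share no replicate number.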
